A study of Homo sapiens with 12 samples.

Results

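The starts of 10 inflammatory genes known as NF-κB targets were examined for acetylation (H3K9ac) and dimethylation (H3K9me2) of lysine 9 of histone H3 in the MDA-MB-231 line, cultured from a human breast adenocarcinoma of the triple negative type. The genes were IL6, CXCL8, CXCL1, CXCL3, CXCL2, PTGS2, NFKBIA, TNFAIP3, ICAM1 and LIF, and each was taken as the window from 5 kb before to 5 kb after 1 start base on hg19, counted from 1. The start bases on plus-strand genes were 22766766 on chromosome 7 for IL6, 74606223 and 74735109 on chromosome 4 for CXCL8 and CXCL1, 138188325 on chromosome 6 for TNFAIP3 and 10381517 on chromosome 19 for ICAM1. Those on minus-strand genes were 74904490 and 74964997 on chromosome 4 for CXCL3 and CXCL2, 186649559 on chromosome 1 for PTGS2, 35873960 on chromosome 14 for NFKBIA and 30642840 on chromosome 22 for LIF. Each window thus holds sequence upstream of its gene and the first part of the gene; exons were not assigned, since no hg19 annotation was used here. These 10 windows were read beside 130061 tiles of 10 kb, all the tiles of the genome in which any H3K9ac library had a peak. The treated cells were serum starved overnight and then held for 24 h in DETA/NO at 500 µM, a slow chemical donor of nitric oxide. The untreated cells received no DETA/NO and served as the control. Each condition had 2 biological replicates for each mark, so 4 H3K9ac and 4 H3K9me2 libraries. The line is 1 tumour's descendants, its copy number at these loci was not measured here, and no RNA was measured in the lists used.

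NF-κB is a family of transcription factors that inhibitor proteins of the IκB class hold in the cytoplasm until a signal has them degraded. The freed dimers then bind short κB sites, often just upstream of the start, in genes for cytokines, chemokines, adhesion molecules and enzymes of inflammation. The same factors also switch on their own inhibitors, among them NFKBIA and TNFAIP3, which closes a negative feedback loop. MDA-MB-231 cells are known for constitutive NF-κB activity and secretion of inflammatory cytokines. H3K9ac marks active promoters and enhancers, whereas H3K9me2 marks broad silent domains.

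The promoters of the cytokine and chemokine genes are shown first because they carry the κB sequences by which this group is known. RefSeq promoter windows on GRCh38.p14, from 250 bases before to 50 after the table's start, were found for 9 of the 10 genes. In the sequences below the capitals mark matches on either strand to the NF-κB consensus or to GGAATTTCC. The consensus searched was GGGRNNYYCC, where R is A or G, Y is C or T and N is any base. The IL6 window is chr7:22726950-22727249 (plus strand), that of CXCL1 chr4:73869143-73869442 (plus strand), that of CXCL3 chr4:74038640-74038939 (minus strand) and that of CXCL2 chr4:74099146-74099445 (minus strand), each printed 5′ to 3′ along its gene.
IL6: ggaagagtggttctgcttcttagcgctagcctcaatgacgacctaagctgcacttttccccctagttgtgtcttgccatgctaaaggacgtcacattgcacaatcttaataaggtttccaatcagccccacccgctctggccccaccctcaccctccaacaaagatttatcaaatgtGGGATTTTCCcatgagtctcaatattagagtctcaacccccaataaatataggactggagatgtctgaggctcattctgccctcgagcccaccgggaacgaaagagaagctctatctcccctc
CXCL1: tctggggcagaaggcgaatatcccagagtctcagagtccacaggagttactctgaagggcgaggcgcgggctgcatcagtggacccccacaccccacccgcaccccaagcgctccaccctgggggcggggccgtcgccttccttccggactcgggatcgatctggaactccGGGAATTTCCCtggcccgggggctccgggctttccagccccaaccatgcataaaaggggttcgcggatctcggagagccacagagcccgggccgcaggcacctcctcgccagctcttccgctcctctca
CXCL3: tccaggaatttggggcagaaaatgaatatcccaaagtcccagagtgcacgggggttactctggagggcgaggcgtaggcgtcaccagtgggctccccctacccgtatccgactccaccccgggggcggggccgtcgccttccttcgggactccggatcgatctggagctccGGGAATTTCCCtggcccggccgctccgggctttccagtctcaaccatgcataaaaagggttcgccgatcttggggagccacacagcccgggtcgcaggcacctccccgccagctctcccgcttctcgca
CXCL2: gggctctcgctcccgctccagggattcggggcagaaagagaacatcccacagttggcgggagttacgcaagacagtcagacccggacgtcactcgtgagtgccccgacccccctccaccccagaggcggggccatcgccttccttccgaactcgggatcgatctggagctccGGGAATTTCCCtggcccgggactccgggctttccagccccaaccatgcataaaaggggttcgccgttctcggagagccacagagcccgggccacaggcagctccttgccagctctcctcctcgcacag

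The 3 CXC chemokine promoters share the same 11 bases, GGGAATTTCCC in capitals, with the first base 79, 79 and 78 bases upstream of the start in CXCL1, CXCL3 and CXCL2. The consensus matched there on both strands, with a shift of 1 base. In IL6 the match was GGGATTTTCC, beginning 73 bases upstream. Both strands were searched, and 6 of the 9 promoters held the consensus, against 11.3% of all 35116 promoters in the table. The 9-base word GGAATTTCC, which overlaps the consensus where both occur and was picked from known sites of these genes, stood in 6 of the 9, against 0.461% of all promoters. CXCL8 had it 91 bases upstream, without a consensus match. In NFKBIA it read GGAAATTCC along the gene from 81 bases upstream, the opposite strand of the same word, and in ICAM1 it did so from 186 bases upstream. TNFAIP3 had a pair of consensus matches on the opposite strand, which read GGAAAGTCCC and GGAAATCCCC along the gene, from 67 and 55 bases upstream. PTGS2 matched neither in this window. A TATAAA word stood in 4 of the 9 (CXCL8, PTGS2, NFKBIA and ICAM1), against 11.5% of all promoters, and TGANTCA, a word bound by AP-1 factors, in CXCL8 alone, against 7.71%. The start in the promoter table need not be the same base as the hg19 start used for the windows, so these positions were not set against the peaks.

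CXCL1, CXCL3 and CXCL2 are paralogs, and their promoter windows were alike. In a global alignment CXCL1 and CXCL3 were identical at 254 of 308 columns (82.5%), CXCL3 and CXCL2 at 73.7% and CXCL1 and CXCL2 at 69.8%, whereas CXCL8 was 43.1 to 44.2% identical to each of them. Whether reads shared by these paralogs were divided or discarded is not given in the sources used here, so their separate peaks are less certain than those of the single-copy genes.

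The deposited lists give called intervals with a score, not reads, so sequencing depth is unknown. H3K9ac had 79538 and 69151 peaks in the DETA/NO libraries, replicates 1 and 2 in that order, and 120630 and 59724 in the untreated libraries, covering 52.1 and 37.8 Mb after DETA/NO and 48.3 and 22.8 Mb without it. The authors' reproducible sets, 1 per condition, held 21098 regions after DETA/NO and 14377 in untreated cells. Untreated replicate 2 thus had the shortest list and treated cells had the larger reproducible set, and both bear on every count that follows.

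H3K9ac at the 10 starts was called over more sequence in DETA/NO cells than in untreated cells, in the mean of every gene. The covered length per window had a median over the 10 genes of 2219.5 and 1774.5 bp in the DETA/NO libraries and 988 and 531.5 bp in the untreated libraries. The median difference between condition means was 700.5 bp per gene. In 7 of the 10 windows both DETA/NO libraries lay above both untreated libraries (IL6, CXCL1, CXCL2, PTGS2, NFKBIA, TNFAIP3 and ICAM1), and in CXCL3, CXCL8 and LIF the conditions overlapped or tied. Both DETA/NO libraries lay above both untreated ones in 15.6% of all tiles and windows fitted, in 75.7% of those touching a reproducible region of either set and in 81.7% of those touching both sets, so 7 of 10 is near the share among acetylated tiles. Both DETA/NO libraries lay below both untreated ones at 0 of the 10 genes, beside 6.62%, 3.1% and 0.418% in the same 3 groups of features. In bulk chromatin, more cells carrying the mark and more of the mark per cell cannot be told apart. After each library was scaled to the same whole covered length, 6 of the 10 windows had both DETA/NO libraries above. Of all 130071 tiles and windows, 14961 then had both DETA/NO libraries above and 9157 had both below. The 6 windows were not all among the 7 named: NFKBIA, PTGS2 and CXCL2 left the count, and CXCL3 and LIF entered it.

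**Figure D1:**
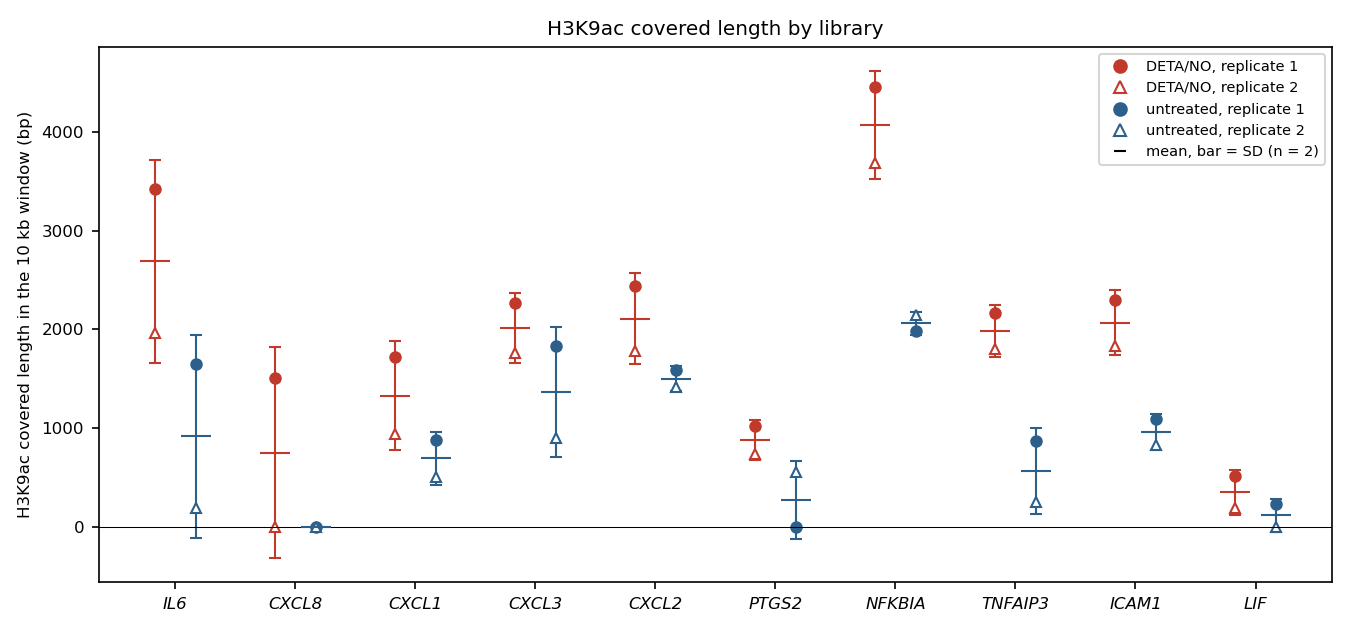
H3K9ac covered length (bp) in the 10 kb window of each gene, with 1 point per library, DETA/NO in red and untreated in blue, and horizontal marks and bars for mean and SD (n = 2). Means of DETA/NO cells lie above those of untreated cells in all 10 windows, and NFKBIA is the highest of the 10 in each condition.

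No single window passed the test for a difference. A limma fit to the arcsine square root of the covered share, over 130071 tiles and windows, called 0 of the 10 genes at a Benjamini-Hochberg adjusted p under 0.05, with adjusted p-values of 0.152 to 0.549. Across the whole fit 737 features (0.567%) were called higher and 7 (0.00538%) lower. At an unadjusted p under 0.05 stood 5 of the 10 genes, beside 9.09% of all features. The share was 40.2% in the fit to tiles touching either reproducible set, where 4 of the 10 genes stood under 0.05, and 48.2% in that to tiles touching both, where 6 did. The count of 737 became 168 without DETA/NO replicate 1, 0 without DETA/NO replicate 2, 2159 without untreated replicate 1 and 1356 without untreated replicate 2, while the count of genes called remained 0 in each. For a single window the exact two-sided permutation test of 2 libraries against 2 cannot go below p = 0.333, and 7 genes stood at that value.

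A reproducible H3K9ac region lay within 5 kb of 8 starts in DETA/NO cells and of 3 starts in untreated cells, CXCL3, CXCL2 and NFKBIA. Of the 130061 tiles, 20296 held a DETA/NO region and 13011 an untreated region. The 5 genes with a region in the DETA/NO set alone were IL6, CXCL1, PTGS2, TNFAIP3 and ICAM1, and none had one in the untreated set alone. Among all tiles with a DETA/NO region, 39.9% held no untreated region. Those 5 genes were not bare in untreated cells: 4 had peaks in both untreated libraries and PTGS2 in 1, so what they lacked was a region kept as reproducible. Of the tiles with a region in the DETA/NO set only, 38% had a peak in both untreated libraries and 20.9% in neither. Where only the 14377 highest-scoring DETA/NO regions were kept, equal in number to the untreated set, 7 genes had one.

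**Figure D2:**
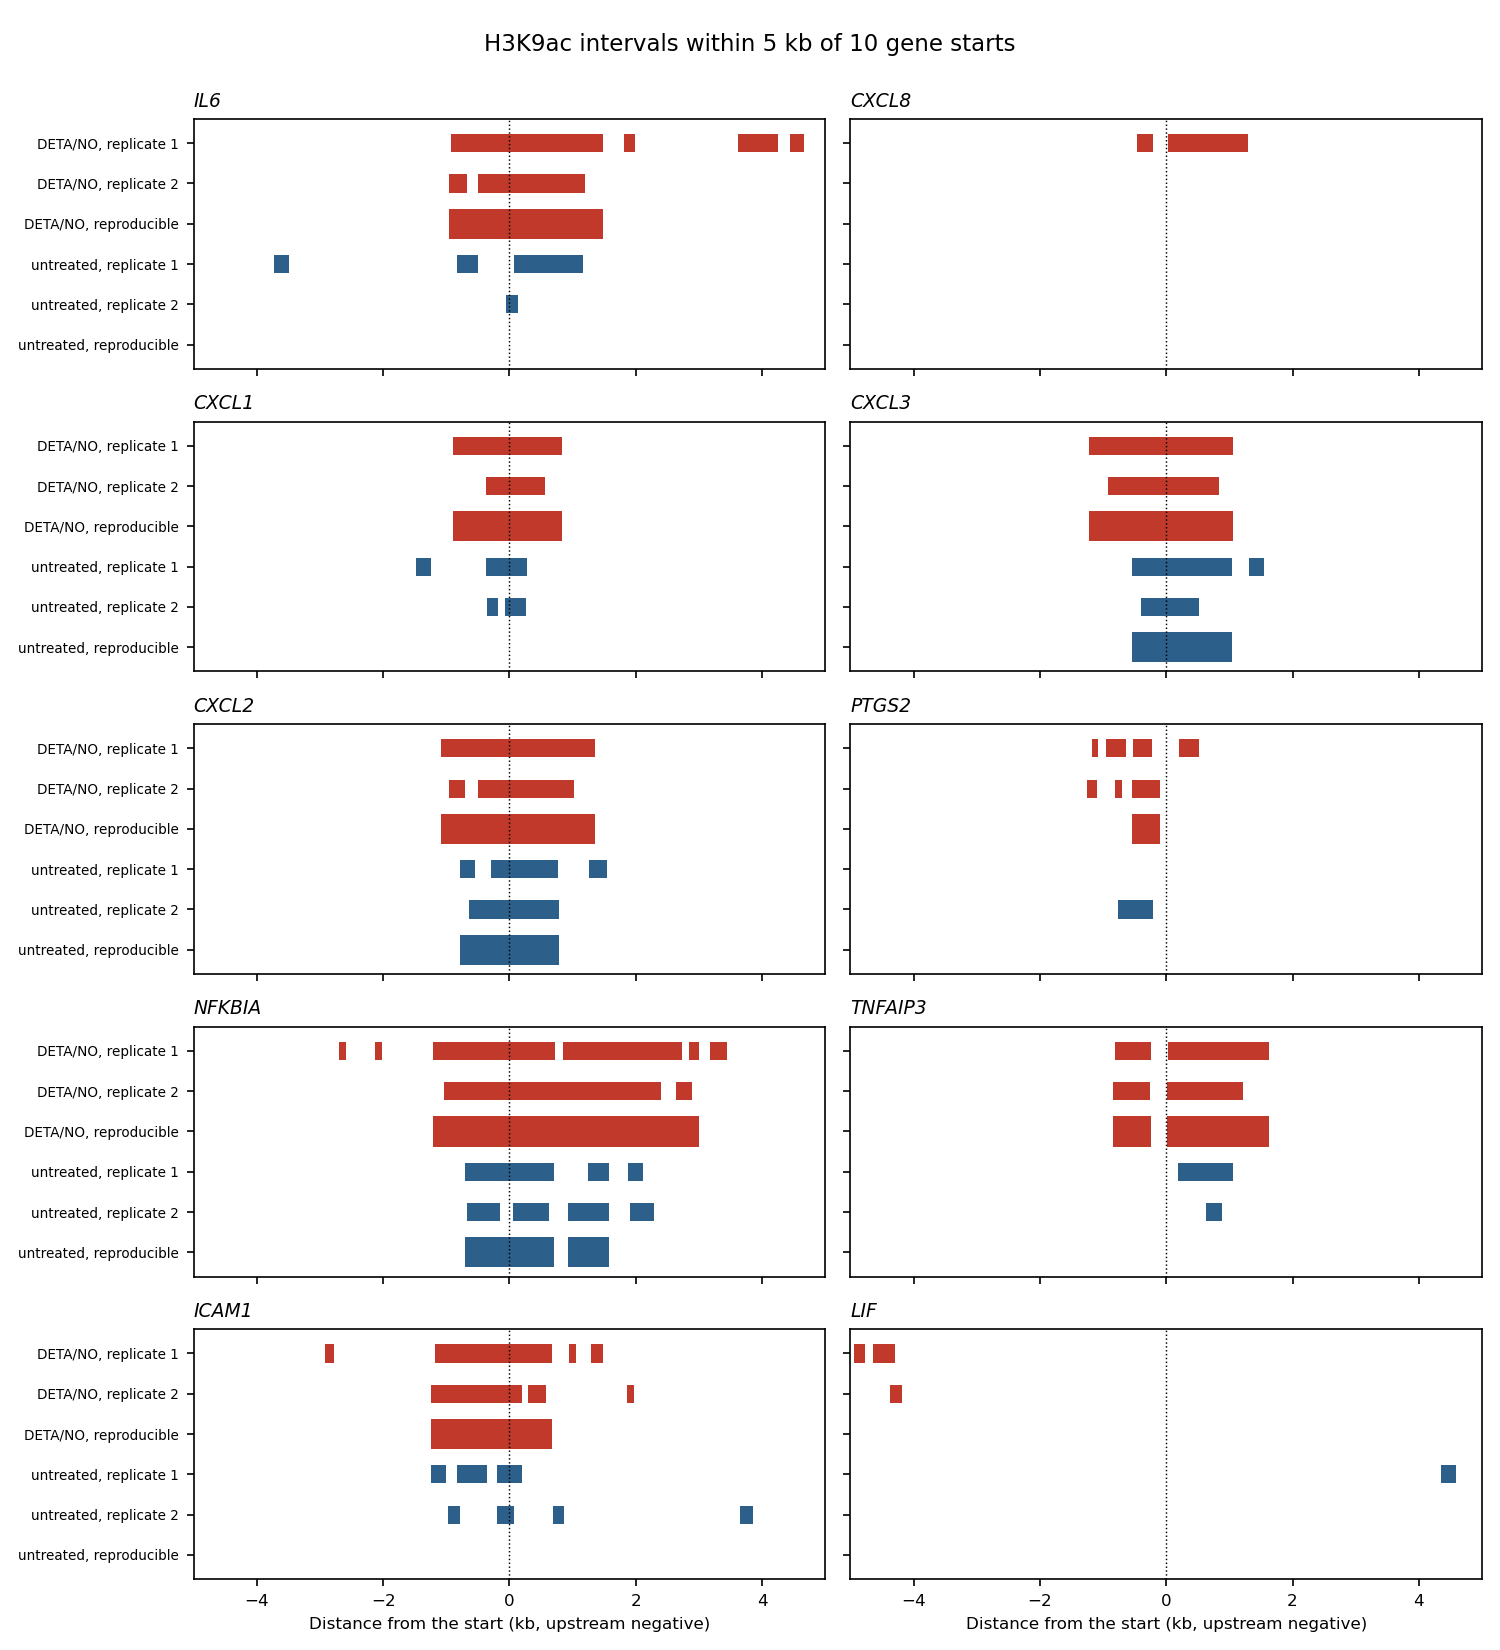
Called H3K9ac intervals within 5 kb of each start, by distance from the start in kb along the gene (upstream negative). Thin bars are peaks of single libraries and thick bars are regions of the reproducible sets, DETA/NO in red above untreated in blue. Thick red bars appear at 8 genes and thick blue bars at 3.

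Among the secreted signals, IL6, the cytokine that drives the acute phase response, had an H3K9ac peak within 500 bp of its start in all 4 libraries. H3K9ac covered 3417 and 1965 bp of its window in the DETA/NO libraries and 1648 and 196 bp in the untreated libraries, 2691 bp ± 1027 against 922 bp ± 1027 (SD, n = 2 each). The conditions did not overlap, but DETA/NO replicate 2 lay only 317 bp above untreated replicate 1, while the replicates of each condition were 1452 bp apart. limma put the difference at 0.26 on the arcsine scale (SE 0.081, adjusted p = 0.162). After DETA/NO a reproducible region (chr7:22765810-22768252) ran from 956 bp upstream to 1486 bp downstream of the start. It had 2443 bp, at an irreproducible discovery rate of 3.5e-05 by the authors' value, and was wider than 72.8% of its set. DETA/NO replicate 1 had 1 peak there, from 919 bp upstream to 1486 bp downstream. DETA/NO replicate 2 had separate peaks, at 956 to 674 bp upstream and from 493 bp upstream to 1188 bp downstream. Untreated replicate 1 had separate peaks on either side of the start, at 824 to 494 bp upstream and 80 to 1158 bp downstream. Untreated replicate 2 had 1 peak of 196 bp over the start itself.

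CXCL8, which encodes the neutrophil attractant interleukin-8, was nearly without called H3K9ac. DETA/NO replicate 1 had 1509 bp in 2 peaks, at 457 to 216 bp upstream and 28 to 1294 bp downstream. DETA/NO replicate 2 and both untreated libraries had 0 bp. A single library therefore carries its difference of 754.5 bp, which is 0 without DETA/NO replicate 1, and no reproducible region was called in either condition (limma adjusted p = 0.549).

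The neighbouring CXCL1, CXCL3 and CXCL2 genes, whose products attract neutrophils through the receptor CXCR2, carried H3K9ac over the start in all 4 libraries. CXCL1 was covered over 1723 and 940 bp in the DETA/NO libraries and 884 and 506 bp in the untreated libraries. Its 2 conditions were parted by 56 bp, the gap between DETA/NO replicate 2 and untreated replicate 1. CXCL2 had 2435 and 1783 bp after DETA/NO and 1590 and 1413 bp in untreated cells. CXCL3 had 2268 and 1766 bp after DETA/NO and 1835 and 906 bp in untreated cells, so here untreated replicate 1 lay above DETA/NO replicate 2. As ratios of condition means these were 1.92 for CXCL1, 1.40 for CXCL2 and 1.47 for CXCL3, none past the limma threshold (adjusted p = 0.549 each). The CXCL3 ratio was 2.23 without untreated replicate 1 and 1.10 without untreated replicate 2.

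The reproducible regions of this chemokine group also differed in reach. At CXCL3 the DETA/NO region (chr4:74903440-74905707) ran from 1217 bp upstream to 1050 bp downstream and the untreated region from 548 bp upstream to 1046 bp downstream, so the added length lay on the upstream side. At CXCL2 the DETA/NO region (chr4:74963642-74966076) reached 1079 bp upstream and 1355 bp downstream, and the untreated region 786 and 778 bp. CXCL1 had a DETA/NO region alone (chr4:74734214-74735936), from 895 bp upstream to 827 bp downstream. The outer bounds of each set come from both libraries, so DETA/NO replicate 1, which had the longer peak at all 3 genes, fixed the edges of their DETA/NO regions.

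LIF, a cytokine of the IL6 family that signals through the shared receptor subunit gp130, had no H3K9ac peak near its start in any library. The peaks in its window lay at the margins, at 4299 to 4940 bp upstream in DETA/NO replicate 1, at 4188 to 4377 bp upstream in DETA/NO replicate 2 and at 4353 to 4590 bp downstream in untreated replicate 1. Covered lengths were 513 and 190 bp after DETA/NO and 238 and 0 bp in untreated cells, which overlap. In position the upstream peaks were called in both DETA/NO libraries and in neither untreated one, but without a reproducible region within 5 kb. With 10 kb either side LIF joined the genes with a DETA/NO region, then 9. The genes with an untreated region also rose, from 3 to 4, and the added gene is not named here. The LIF difference in that wider window was 12.2 percentage points of the length (limma adjusted p = 0.452). The 5 kb edge thus bears on the values given for LIF.

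PTGS2 and ICAM1 stand for the enzyme and adhesion arms of the response. PTGS2, the inducible cyclooxygenase that makes prostaglandin precursors, had 1027 and 737 bp in the DETA/NO libraries and 0 and 557 bp in the untreated libraries. Its peaks were short, at most 557 bp, and mostly upstream: 720 bp on average after DETA/NO and 278.5 bp in untreated cells lay before the start. The start base was covered in no library. Its reproducible region after DETA/NO (chr1:186649655-186650104), 545 to 96 bp upstream, was narrow (450 bp, wider than 7.48% of the set) and weak, at an irreproducible discovery rate of 0.027 by the authors' value, and PTGS2 was the gene left without one when the DETA/NO set was reduced to 14377.

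ICAM1, the adhesion molecule that leukocyte integrins bind, had 2299 and 1835 bp in the DETA/NO libraries and 1092 and 835 bp in the untreated libraries, 2067 bp ± 328 against 963.5 bp ± 182 (SD, n = 2 each). The conditions were separated by more than either spread (limma difference 0.16, SE 0.067, adjusted p = 0.426). The untreated libraries held 3 and 4 peaks of at most 473 bp, and the peak over the start had 381 and 268 bp. The DETA/NO libraries held 4 and 3 peaks, and the peak over the start had 1866 and 1436 bp. The reproducible region after DETA/NO (chr19:10380280-10382198) reached 1237 bp upstream but 681 bp downstream.

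In covered length as called, the feedback inhibitors had some of the clearest separations. NFKBIA, which encodes IκBα, had the longest mean covered length of the 10 starts in both conditions: 4451 and 3680 bp in the DETA/NO libraries and 1981 and 2143 bp in the untreated libraries, 4065.5 bp ± 545 against 2062 bp ± 115 (SD, n = 2 each). The difference of 2003.5 bp was larger than the spread within either condition (limma difference 0.22, SE 0.072, adjusted p = 0.200). After scaling to the same whole covered length the conditions overlapped at NFKBIA (limma difference 0.11, SE 0.098, adjusted p = 0.572). Its DETA/NO region of 4210 bp (chr14:35870962-35875171) was wider than 94.7% of its set and reached 2998 bp into the gene and 1211 bp upstream. In untreated cells a region of 1400 bp lay over the start and a second of 656 bp began 924 bp downstream. In bp the added length was thus mostly on the gene side, where the mean covered length was 2838.5 bp after DETA/NO and 1448 bp in untreated cells. Upstream it was 1227 and 614 bp, so the gene side was already the longer in untreated cells.

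TNFAIP3, which encodes the ubiquitin-editing enzyme A20, had 2171 and 1801 bp in the DETA/NO libraries and 872 and 259 bp in the untreated libraries, 1986 bp ± 262 against 565.5 bp ± 433 (SD, n = 2 each). The ratio of means was 3.51, and it became 7.67 without untreated replicate 1 and 2.28 without untreated replicate 2 (limma difference 0.23, SE 0.070, adjusted p = 0.152). Upstream of the start, H3K9ac was called in both DETA/NO libraries (568 and 595 bp) and in neither untreated library. Both DETA/NO libraries left a gap around the start itself, from 238 bp upstream to 20 bp downstream in replicate 1 and from 252 bp upstream to 13 bp downstream in replicate 2. The reproducible set kept that gap as 2 regions, of 609 bp (chr6:138187478-138188086) and 1610 bp (chr6:138188339-138189948).

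A peak over the start base was found at 6 genes in each DETA/NO library and at 5 in each untreated library. It was there in both DETA/NO libraries at IL6, CXCL1, CXCL3, CXCL2, NFKBIA and ICAM1, and in both untreated libraries at 4 of these, without IL6 and NFKBIA. The share of other gene starts with such a peak was not computed, so these counts have no background here. Over the 10 windows together, 8877 and 6622 bp upstream and 12936 and 8075 bp downstream were covered in the DETA/NO libraries, against 3848 and 2803 bp upstream and 6292 and 4012 bp downstream in the untreated libraries.

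Acetylated tiles of the genome give a scale for 8 of the 10 differences. The 3 genes with regions in both sets had a median difference of 646.5 bp, and the 12197 tiles with regions in both sets 926.5 bp (quartiles 545.5 and 1398.5). The 5 genes with a region in the DETA/NO set alone had a median of 1103.5 bp, beside 628 bp (quartiles 322 and 1018) in 8099 such tiles. IL6 (1769 bp), TNFAIP3 (1420.5 bp) and ICAM1 (1103.5 bp) lay above the upper quartile of such tiles, and NFKBIA (2003.5 bp) above that of the tiles with regions in both sets. CXCL8 and LIF, with a region in neither set, have no class here. Over all 130061 tiles the median was -107 bp, with median covered lengths of 0 bp after DETA/NO and 119 bp in untreated cells. Only 19.2% of those tiles had a peak in both untreated libraries, and untreated replicate 1 had the longest list, 120630 peaks. Tiles fall on a fixed grid and can cut a region that a window centred on a start holds whole, so the lengths are not strictly alike.

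**Figure D3:**
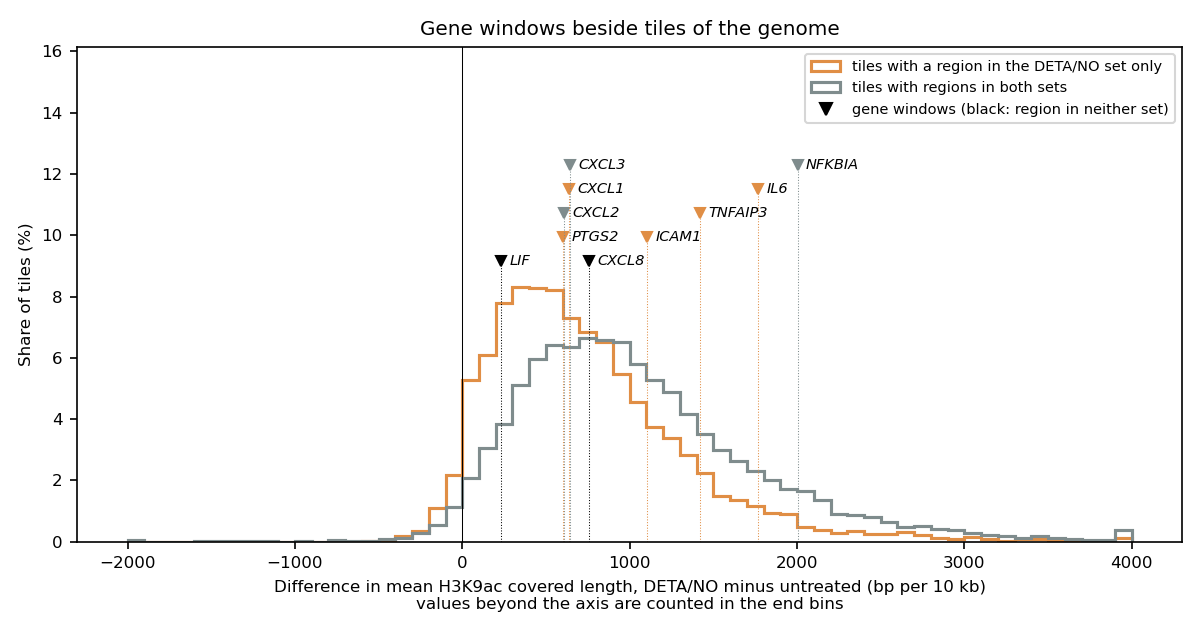
Difference in mean H3K9ac covered length between DETA/NO and untreated cells (bp per 10 kb) for tiles with a region in the DETA/NO set only (orange) and in both sets (grey), as the share of tiles in bins of 100 bp. Triangles mark the 10 gene windows at their own differences, in the colour of their class for 8 genes and in black for CXCL8 and LIF, which have a region in neither set. NFKBIA, IL6 and TNFAIP3 are farthest to the right.

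H3K9me2 was called at none of the 10 starts. Coverage by islands was 0% in all 40 combinations of window and library, in DETA/NO and untreated cells alike. No change of this mark within 5 kb could thus be seen in either direction. Islands covered 285 and 226 Mb in the DETA/NO libraries and 235 and 254 Mb in the untreated libraries. The share of tiles without an island was not computed, so 0 of the 10 genes has no background here. The nearest island was 6.28 kb away, beside CXCL8 in DETA/NO replicate 1. Islands are called on a grid of 500 bp and the narrowest was 1500 bp wide, so shorter stretches of the mark would not appear in these lists.

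Farther out, the genes differed widely in their distance to H3K9me2. At PTGS2 the nearest island was 101 and 16.9 kb from the start in the DETA/NO libraries and 9.44 and 7.56 kb in the untreated libraries. At IL6 it was 205 and 303 kb away after DETA/NO and 35.2 and 9.74 kb in untreated cells. TNFAIP3 lay on a stretch of chromosome 6 whose nearest island was 28572 and 28352 kb away in the DETA/NO libraries and 26028 kb away in each untreated library, and LIF, on chromosome 22, had none closer than 14291 kb in any library. ICAM1 had its nearest island at 5463 and 9666 kb after DETA/NO and at 546 and 789 kb in untreated cells. The island was farther in both DETA/NO than in both untreated libraries at 4 genes (IL6, PTGS2, TNFAIP3 and ICAM1) and closer at 0, beside 15.1% and 13.4% of the centres of tiles with H3K9ac. With 2 libraries against 2 the exact permutation p at each of the 4 cannot be below 0.333.

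Between the starts of CXCL8 and CXCL2, 359 kb of chromosome 4, H3K9me2 islands covered 4.60% and 0% in the DETA/NO libraries and 2.51% and 0% in the untreated libraries. The islands there, 16.5 kb in DETA/NO replicate 1 and 9 kb in untreated replicate 1, were thus each called in 1 replicate of a condition.

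**Figure D4:**
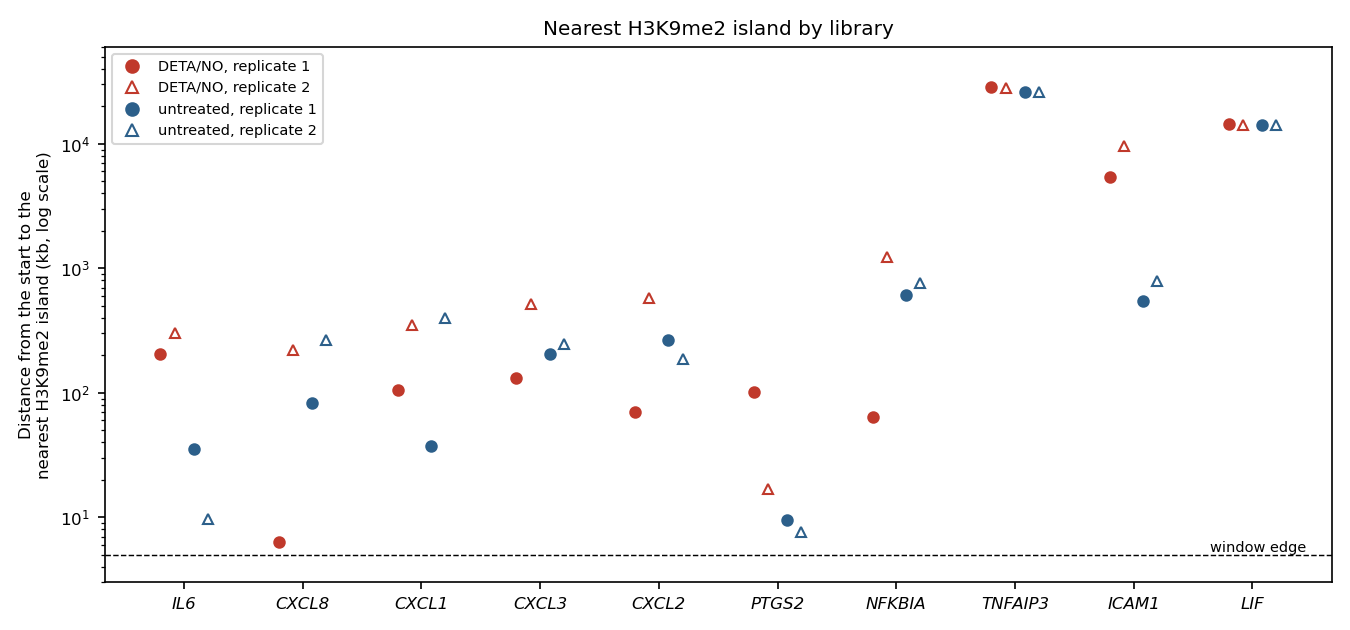
Distance (kb, log scale) from each start to the nearest H3K9me2 island, 1 point per library, DETA/NO in red and untreated in blue; the dashed line is the 5 kb edge of the windows. No point lies below the line, and TNFAIP3 and LIF are at least 14291 kb from any island.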

How the data were processed

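H3K9ac and H3K9me2 were mapped by chromatin immunoprecipitation and sequencing in 8 libraries; 4 inputs were not analysed here. Per the submitters' processing notes, Trimmomatic 0.32, BWA 0.7.5, Picard, MACS2 and SICER were used on hg19, without roles; their settings are not stated in the labels. The authors deposited 10 lists: peaks of each H3K9ac library with a score, islands of each H3K9me2 library with a score, and 2 reproducible H3K9ac sets whose deposited −log10 value was read as that of an irreproducible discovery rate, since it starts at 1.301. Other deposited columns were used as positions; island ends were extended by 1 bp. Scores served only to rank within a list.

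The start bases came with the choice of genes; the strand came from the RefSeq promoter table, and for LIF from general knowledge. The genes, the words searched in promoters and the tests were chosen with earlier results of these data known. All 10 genes are named, and promoters are printed for the first 4 with a consensus match. Intervals overlapped when they shared 1 bp. Covered length was counted in windows and in 10 kb tiles of 23 chromosomes with a peak in any library, and limma 3.58.1 in R 4.3.3 was fitted to all of them with a mean-variance trend. Python 3.11.15, pandas 2.3.3, SciPy 1.17.1 and Biopython 1.88 did the rest. The interval and limma steps were tested on simulated data. The labels call the 2 replicates biological. The limma SEs and p-values combine the spread between replicates with a variance trend over all features fitted. They therefore do not measure the spread of a single window alone. Other NF-κB pathway genes were not analysed here because their starts on hg19 were not given.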

Additional observations from a re-analysis of the deposited data

How the results depend on the processing

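Of 130 differences of single genes under 13 alternatives, 125 were above 0 on the arcsine scale, as in the values reported, and 5 were exactly 0: CXCL8, PTGS2 and LIF with the 20000 top peaks, LIF at 2.5 kb and CXCL8 without DETA/NO replicate 1. On the untransformed scale 1 of the 130 was below 0, CXCL2 after scaling to the whole covered length, at -0.228 percentage points of its window. In 15 cases the gene newly passed the limma threshold. The count of genes called higher by limma, 0 of 10, became 2 with windows of 2.5 kb either side and 3 with equal numbers of top peaks. It became 1 after scaling to the whole covered length and 5 among tiles touching both reproducible sets. In the same order, these fits called 4653 of 165711, 6465 of 95885, 2004 of 130071 and 3735 of 12207 features higher. IL6 was called in each of these fits, with adjusted p-values from 1.7e-07 to 0.027. It remained 0 without any 1 library.

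The 737 features called higher and 7 lower over the genome were unstable: 4653 and 44 with 2.5 kb, 0 and 0 with 10 kb, 6465 and 53 with equal numbers of top peaks, 0 and 0 with the 20000 top peaks, 2004 and 113 after scaling, 1836 and 35 on the untransformed share, 0 and 0 in tiles touching either set, and 3735 and 18 in those touching both. Without 1 library they ranged from 0 to 2159 higher and from 0 to 55784 lower. The cause was not tested. The median difference over all features was -0.07 on the arcsine scale and 0.12 with the 20000 top peaks.

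In a limma fit with replicate as a block, 4 genes (IL6, NFKBIA, TNFAIP3 and ICAM1) and 8989 features in all were called higher and 80 lower. The labels give no shared batch or day for equal numbers, and the replicate differences of the conditions correlated at -0.014 over features, so the pairing was not used.

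The number of windows with both DETA/NO libraries above ran from 6 to 8 over the alternatives that kept all 4 libraries. The 6 stood beside 14961 of 130071 features after scaling. The 8 stood beside 15478 of 93357 with 10 kb and 21270 of 95885 with equal numbers of top peaks. Where 1 library was left out the number ran from 7 to 10. It was 10 without DETA/NO replicate 2, where only 1 DETA/NO library was left to compare. Starts inside a peak in both untreated libraries numbered 4, and 2 with the 20000 top peaks. Genes with an H3K9me2 island in any library numbered 0 within 5 kb, 4 within 50 kb and 7 within 250 kb. The shares of tiles at these distances were not computed. Depth is unknown, so a window without a peak is not shown to lack the mark.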
